A study of Mus musculus with 8 samples.

Results

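The 96 genes described here encode subunits of the mouse oxidative phosphorylation system, 83 of them nuclear and 13 carried by mitochondrial DNA. They were picked by name alone from the protein coding entries of the deposited table, out of 13388 gene identifiers: symbols of the Nduf subunits of complex I, the Sdh subunits, the Uqcr subunits with Cyc1, the Cox subunits, the Atp5 subunits, and all symbols beginning with mt-. Complex I had 43 members (36 nuclear), complex II 4, complex III 10 (9 nuclear), complex IV 20 (17 nuclear) and complex V 19 (17 nuclear). Ndufa4, named after complex I, was counted with complex IV, where it is now placed. All 96 passed the filter on low values and were among the 13374 genes tested.

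The libraries were made from Ly6C+ classical monocytes and from common monocyte progenitors (cMoPs), the dividing precursors of monocytes. Both came from the bone marrow of wild-type mice and were kept for 6 h with OP9 cells, stromal cells of mouse bone marrow that grow as a line, or with OP9-DLL1 cells, which display the Notch ligand DLL1. This gave 4 groups of 2 libraries, and no group was kept without stroma. The labels number the libraries of a group but name no separate mice or wells for them; the p-values below thus rest on the spread between libraries, which could be technical.

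Oxidative phosphorylation passes electrons from NADH through complex I, or from succinate through complex II, to ubiquinone, complex III, cytochrome c and complex IV, which reduces oxygen. Complexes I, III and IV pump protons across the inner mitochondrial membrane, and complex V, the ATP synthase, uses their return to make ATP. Mitochondrial DNA encodes core subunits of every complex but II, while all other subunits are nuclear and imported, so the machine is built from transcripts of both genomes. In the myeloid lineage, progenitors are generally regarded as mitochondria-rich and differentiated phagocytes as more glycolytic.

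Levels are read counts scaled to an effective library size (CPM), taken from the deposited log2 values. Recovered depth was 47316323 to 62459962 reads per library. The effective library sizes that the deposited values imply were 43312371 to 66166902, so that 1 read stood for 0.0151 to 0.0231 CPM. These sizes lay below the recovered reads in every monocyte library and above them in every cMoP library. All 7 of the progenitor markers in the table (Elane, Mpo, Prtn3, Ctsg, Ms4a3, Cd34 and Kit) were higher in cMoPs on either stroma, with summed levels of 14676 to 21961 CPM against 162.2 to 295.2 CPM in monocytes. Of 7 monocyte markers, 3 were higher and 4 lower in cMoPs on each stroma. They summed to 3863 to 4507 CPM in cMoPs and 4966 to 7048 CPM in monocytes. Of 4 T and NK cell markers, Cd3d and Cd3e were not in the table. The other 2, Lck and Nkg7, summed to 178.9 to 321.6 CPM in cMoPs and 1.27 to 2.23 CPM in monocytes. Only 1 of them was higher in cMoPs on each stroma. Stromal markers (7 of the 17 listed were in the table) summed to 28.2 and 29.4 CPM for OP9 monocytes, 17.2% and 72.9% of that group's mean in the 2 OP9-DLL1 monocyte libraries, and 0.673 to 3.03 CPM in the cMoP libraries. Their part in the results below was not tested. The 2 libraries of the monocytes on OP9 were further apart than those of any other group. Of all tested genes, 1445 were over 2-fold apart between them, against 724 to 804 genes in the other groups. That count does not show which of the 2 libraries is unusual.

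**Figure D1:**
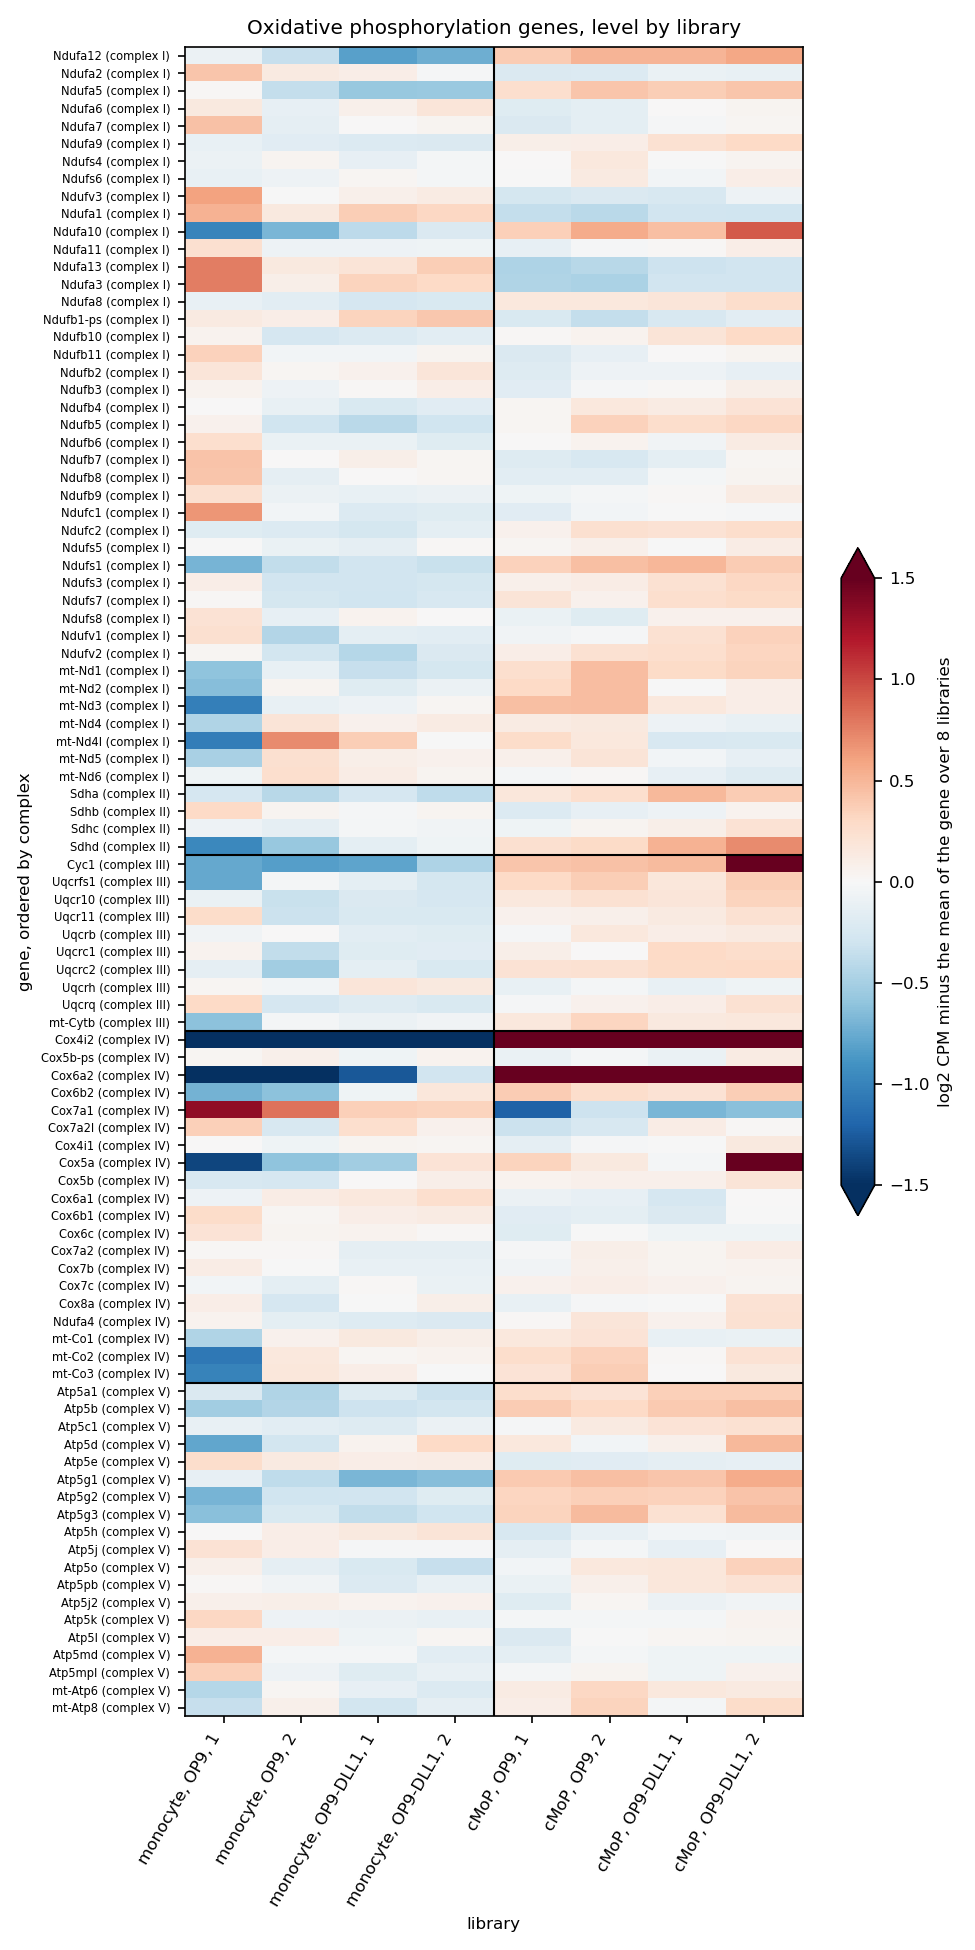
Level of the members named on the vertical axis (rows, ordered by complex) in each of the 8 libraries (columns), as log2 CPM minus that gene's mean over the libraries; colours saturate at 1.5. Cox4i2 and Cox6a2 separate the cell types most, the mt- rows lie below their means in replicate 1 of the monocytes on OP9, and Cox5a and Cyc1 stand out in replicate 2 of the cMoPs on OP9-DLL1.

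Cell type was compared on each stroma with limma-trend, a moderated linear model, and a gene is said to pass when its Benjamini-Hochberg adjusted p over all 13374 genes is under 0.05. On OP9, 27 of the 96 genes were higher and 11 lower in cMoPs, which is 39.6% against 56.5% of all genes tested. On OP9-DLL1, 32 were higher and 5 lower, which is 38.5% against 57.4% of all genes. The share of all genes that was higher was 28.8% on OP9 and 28.2% on OP9-DLL1, and the lower share was 27.7% and 29.2%. Both cMoP libraries lay above both monocyte libraries for 42 members and below them for 24 on OP9, where 39.9% and 38.5% of all genes did so (78.4% together). On OP9-DLL1 the counts were 55 and 22, beside 41.1% and 41.7% of all genes (82.8% together). Median log2 differences of the nuclear members were 0.09 on OP9 and 0.17 on OP9-DLL1, beside 0.01 and -0.01 for all genes. The nuclear median on OP9 was -0.02 without replicate 2 of the monocytes on OP9, 0.14 without replicate 1, and 0.01 without replicate 2 of the cMoPs on OP9. These are bulk libraries, in which fewer cells of a type and less RNA per cell cannot be told apart.

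The 2 cell type comparisons use separate libraries but 1 estimate of the spread. In them, 18 nuclear genes were higher on both stromas, which is 81.8% of the 22 higher on OP9 and 58.1% of the 31 higher on OP9-DLL1. Another 4 were lower on both, of 11 and 5, and none passed in opposite directions. This overlap was not counted over all genes, of which 56.5% and 57.4% passed, so it describes the members only. Scaling bears on the split. Libraries were also rescaled to their totals without mitochondrially encoded genes, in place of the authors' effective library sizes. The median difference of all genes on OP9 then moved by 0.16. Of the members that passed on OP9, 89.6% were higher, against 71.1% with the authors' scaling. The 13 mitochondrially encoded members came to 0.608 to 1.10% of the effective size per library. Effective sizes lay on opposite sides of the recovered reads in the cell types, as given above. Replacing these sizes and leaving out those genes were not tested separately. With all libraries the medians on OP9 were 0.09 for the nuclear and 0.42 for the mitochondrially encoded members. Without replicate 2 of the monocytes on OP9 they were -0.02 and 0.86. Without replicate 2 of the cMoPs on OP9 they were 0.01 and 0.44. On OP9-DLL1, the nuclear median was 0.12 without replicate 2 of the cMoPs on OP9-DLL1, in place of 0.17.

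**Figure D2:**
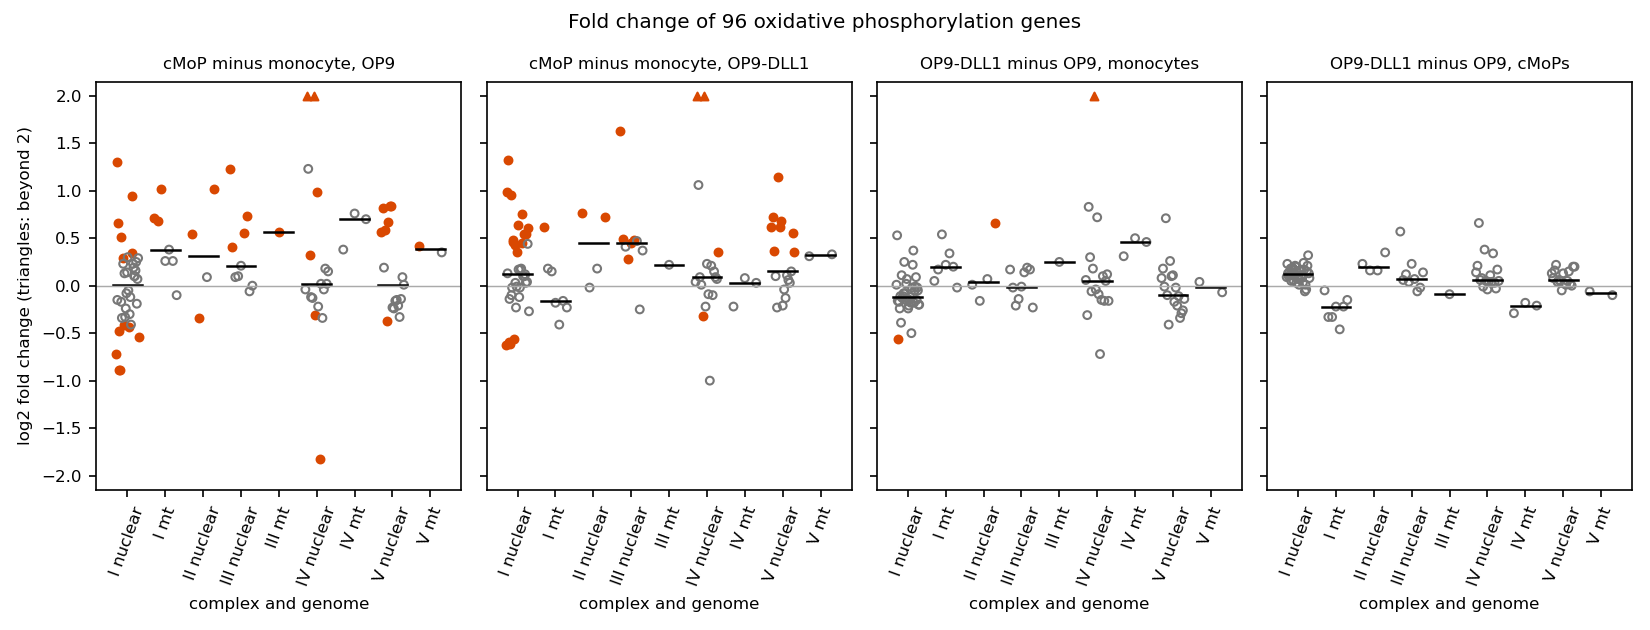
Log2 fold change (vertical axis) of each gene, grouped by complex and by genome (nuclear or mitochondrially encoded, mt), in 4 comparisons; orange points passed with limma-trend, open points did not, black bars are medians, and triangles mark values beyond 2. In the cell type comparisons the points of complexes I and V spread on both sides of 0 (on OP9-DLL1 no complex V gene passed below 0), and on OP9-DLL1 against OP9 in cMoPs the nuclear medians lie above 0 and the mt medians below 0 with no gene passing.

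Within complex V, the ATP synthase, 6 of the 17 nuclear genes were higher and 1 lower in cMoPs on OP9, and 8 were higher and 0 lower on OP9-DLL1. Of the 5 genes of the F1 head and central stalk, 3 were higher on each stroma, and 1 was lower on OP9. The beta subunit gene Atp5b (chr10:128083273-128090391), which holds the catalytic sites of the F1 head, was at 810.5 and 857.3 CPM in OP9 monocytes and 935.7 and 958.2 CPM on OP9-DLL1, and at 1513 and 1424 CPM and 1525 and 1588 CPM in cMoPs. Every cMoP library lay above every monocyte library. The difference was 0.82 ± 0.10 (log2 fold change ± SE, adjusted p = 1.2e-04) on OP9 and 0.72 ± 0.10 (adjusted p = 2.3e-04) on OP9-DLL1, by limma-trend as in all such values here. Its partner Atp5a1, the alpha subunit, went from 812.5 and 695.2 CPM to 1138 and 1088 CPM on OP9 (0.57 ± 0.11, adjusted p = 0.0021), and was also higher on OP9-DLL1 (0.62 ± 0.11, adjusted p = 0.0012).

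All 3 genes of the c subunit, whose copies form the rotating ring in the membrane, were higher in cMoPs on both stromas. Atp5g1 (chr11:96068852-96075670) measured 466.0 and 390.8 CPM in OP9 monocytes, 315.2 and 326.9 CPM on OP9-DLL1, 666.7 and 695.0 CPM in cMoPs on OP9, and 674.5 and 746.7 CPM in cMoPs on OP9-DLL1. The groups of the 2 cell types did not overlap, with differences of 0.67 ± 0.12 on OP9 and 1.14 ± 0.12 on OP9-DLL1 (adjusted p = 0.0011 and 3.9e-05). Atp5g2 differed by 0.84 ± 0.14 and 0.62 ± 0.14, and Atp5g3 by 0.84 ± 0.15 and 0.68 ± 0.15 (limma-trend adjusted p from 8.5e-04 to 0.0042). Per kilobase of annotated exon, Atp5g1 gave 21.8 to 34.6% of their sum over the libraries, Atp5g2 28.2 to 36.2% and Atp5g3 37.2 to 42.4%. These shares rest on annotated exon lengths of 4912, 1675 and 2181 bases, not all of which these cells may use. In CPM, without division by length, the 3 genes averaged 535.2, 217.2 and 356.8 over the libraries. Replicate 1 of the monocytes on OP9 held the highest Atp5g1 share (34.6%), while the other 7 libraries lay at 21.8 to 28.5%.

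The 3 genes encode the same mature protein in different transcripts, so their sequences show what a read can tell apart. The last 120 coding bases of the longest GENCODE M21 coding transcript of each are given with capitals at the 31 positions where the 3 are not the same.
Atp5g1: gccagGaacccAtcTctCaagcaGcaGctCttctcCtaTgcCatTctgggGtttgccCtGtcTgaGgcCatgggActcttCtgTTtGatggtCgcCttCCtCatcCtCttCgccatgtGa
Atp5g2: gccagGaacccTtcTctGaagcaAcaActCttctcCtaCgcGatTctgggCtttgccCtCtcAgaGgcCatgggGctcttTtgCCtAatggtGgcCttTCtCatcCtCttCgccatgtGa
Atp5g3: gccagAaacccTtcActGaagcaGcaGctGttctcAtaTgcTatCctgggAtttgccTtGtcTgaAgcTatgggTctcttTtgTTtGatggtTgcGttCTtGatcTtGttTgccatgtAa
Atp5g1 and Atp5g2 differed at 16 of these positions, Atp5g1 and Atp5g3 at 22, and Atp5g2 and Atp5g3 at 28. Reads of 150 bases would cross several such positions here, but 33.1% of the 150-base windows of Atp5g2 occur in another annotated transcript, so its count is the least certain of the 3.

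The other complex V genes were less uniform. Atp5d, the delta subunit of the central stalk, was at 210.3 and 298.4 CPM in OP9 monocytes and 403.3 and 350.7 CPM in cMoPs on OP9, a difference of 0.59 ± 0.19 (limma-trend adjusted p = 0.028). Without replicate 1 of the monocytes on OP9, or without either cMoP library on OP9, that call was lost (adjusted p up to 0.15). Atp5e, the epsilon subunit and named after its values were seen, was lower in cMoPs on OP9 (-0.37 ± 0.10, adjusted p = 0.011, up to 0.068 without single libraries of the cMoPs on OP9). Of the 4 peripheral stalk genes none passed on OP9, and 2 were higher on OP9-DLL1, Atp5o and Atp5pb (also named after their values were seen), by 0.55 ± 0.13 and 0.35 ± 0.10 (adjusted p = 0.0063 and 0.017). Leaving out single libraries took these to 0.058 and 0.12. None of the 5 small membrane subunits passed on either stroma, with medians of -0.16 and 0.06.

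Complex I showed movement in both directions among its nuclear subunits, 6 higher and 7 lower of 36 on OP9, and 13 higher and 4 lower on OP9-DLL1. Ndufa12 (chr10:94198720-94221443), an accessory subunit of the matrix arm, was at 212.7 and 177.7 CPM in OP9 monocytes, 127.8 and 135.7 CPM on OP9-DLL1, 293.2 and 321.5 CPM in cMoPs on OP9, and 321.1 and 336.8 CPM in cMoPs on OP9-DLL1. cMoPs were above monocytes in every library, by 0.66 ± 0.12 (adjusted p = 0.0015) and 1.32 ± 0.12 (adjusted p = 2.0e-05). Ndufa10, a membrane arm subunit, rose from 94.0 and 115.2 CPM in monocytes to 239.2 and 272.6 CPM in cMoPs on OP9 (1.30 ± 0.17, adjusted p = 2.3e-04), and from 141.8 and 159.5 CPM to 254.1 and 352.7 CPM on OP9-DLL1 (0.99 ± 0.17, adjusted p = 0.0010). Ndufs1, the core subunit with several iron-sulfur clusters, had 37.8 and 47.4 CPM against 78.1 and 84.0 CPM on OP9 (0.94 ± 0.14, adjusted p = 4.5e-04) and was higher by 0.75 ± 0.14 on OP9-DLL1 (adjusted p = 0.0015). Ndufa5, another matrix arm subunit, was higher by 0.95 ± 0.14 on OP9-DLL1 (adjusted p = 3.3e-04) and by 0.51 ± 0.14 on OP9 (adjusted p = 0.011, and 0.092 without replicate 2 of the cMoPs on OP9).

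The 7 nuclear complex I genes lower in cMoPs on OP9 were 5 accessory subunits of the membrane arm and 2 of the matrix arm, Ndufa2 (-0.48 ± 0.12, adjusted p = 0.0076) and Ndufv3 (-0.54 ± 0.18, adjusted p = 0.027, up to 0.11 without single libraries on OP9), which were named after their values were seen. Ndufa1 (chrX:37187588-37191163), needed for complex I assembly, was at 193.5 and 149.2 CPM in OP9 monocytes and 173.9 and 167.3 CPM on OP9-DLL1, against 104.9 and 102.0 CPM and 110.8 and 109.3 CPM in cMoPs. The cell types did not overlap, with differences of -0.72 ± 0.13 (adjusted p = 0.0017) and -0.63 ± 0.13 (adjusted p = 0.0032). Ndufa3, Ndufa13 and Ndufb1-ps, named because they complete the 4 genes lower on both stromas, differed by -0.89 ± 0.19, -0.89 ± 0.18 and -0.41 ± 0.11 on OP9 and by -0.61 ± 0.19, -0.59 ± 0.18 and -0.56 ± 0.11 on OP9-DLL1 (limma-trend adjusted p from 0.0018 to 0.019). The OP9-DLL1 calls of Ndufa3 and Ndufa13 were lost without single libraries of the cMoPs or monocytes on OP9-DLL1 (adjusted p up to 0.085 and 0.11), and the OP9 call of Ndufb1-ps without replicate 2 of the cMoPs on OP9 (0.094). Ndufa13 shares 20.5% of its 150-base windows with another annotated transcript. In replicate 1 of the monocytes on OP9, Ndufa3 and Ndufa13 were at 496.7 and 629.7 CPM, against 309.9 to 368.7 and 409.4 to 480.7 CPM in the other 3 monocyte libraries.

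Counts by position in the complex were as follows. Of the 7 nuclear core subunits of complex I, which carry the redox centres, 1 was higher on OP9 and 4 on OP9-DLL1 and none was lower. Of the 9 accessory subunits of the matrix arm, 2 were higher and 2 lower on OP9, and 3 higher and 0 lower on OP9-DLL1. Of the 20 accessory subunits of the membrane arm 3 were higher and 5 lower on OP9, and 6 higher and 4 lower on OP9-DLL1. Whether the groups of subunits differed from each other was not tested.

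In complex II, succinate dehydrogenase, the 4 genes did not move together. Sdha, the flavoprotein that oxidises succinate, was at 202.8 and 181.3 CPM in OP9 monocytes and 271.9 and 286.3 CPM in cMoPs (0.54 ± 0.11, adjusted p = 0.0029), and was higher by 0.76 ± 0.11 on OP9-DLL1 (adjusted p = 3.7e-04). Sdhd, a membrane anchor, had 117.6 and 154.3 CPM in monocytes and 269.9 and 278.3 CPM in cMoPs on OP9 (1.02 ± 0.14, adjusted p = 2.8e-04), with 0.72 ± 0.14 on OP9-DLL1 (adjusted p = 0.0021). Sdhb, the iron-sulfur subunit between them, was at 641.0 and 534.6 CPM in monocytes and 450.6 and 476.8 CPM in cMoPs on OP9 (-0.34 ± 0.12, adjusted p = 0.034). That call was lost without any single library other than replicate 2 of the monocytes on OP9 (adjusted p up to 0.17), and on OP9-DLL1 the difference was -0.02 ± 0.12. Sdhc, the other anchor, did not pass on either stroma (0.09 ± 0.11 and 0.18 ± 0.11).

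In complex III, 4 of the 9 nuclear genes were higher on OP9 and 5 on OP9-DLL1, and none was lower. Cyc1 (chr15:76343523-76346260), cytochrome c1, was at 16.3 and 15.7 CPM in OP9 monocytes and 37.0 and 37.8 CPM in cMoPs (1.23 ± 0.29, adjusted p = 0.0057). On OP9-DLL1 it was at 16.0 and 20.2 CPM in monocytes and 38.6 and 79.7 CPM in cMoPs (1.63 ± 0.29, adjusted p = 0.0011), and the spread of the cMoP libraries there came to more than 2-fold. The fold was 1.10 without replicate 2 of those cMoPs, on the log2 scale, and the call stood without any single library (adjusted p up to 0.013). Uqcrc2, a core protein of the matrix side, was higher by 0.55 ± 0.13 and 0.48 ± 0.13 (adjusted p = 0.0066 and 0.012, the latter up to 0.074 without single libraries on OP9-DLL1), and Uqcr10, a small subunit, by 0.41 ± 0.12 and 0.49 ± 0.12 (adjusted p = 0.014 and 0.0055, up to 0.093 and 0.056). Uqcrfs1, the Rieske iron-sulfur protein, was at 12.7 and 21.3 CPM against 26.6 and 27.9 CPM on OP9 (0.73 ± 0.23, adjusted p = 0.022), which was lost without replicate 1 of the monocytes on OP9 or either cMoP library on OP9 (adjusted p up to 0.10). Uqcrc1, the other core protein, passed on OP9-DLL1 with 0.45 ± 0.14 (adjusted p = 0.018, up to 0.089 without single libraries there).

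Complex IV, cytochrome c oxidase, divided into common and alternative subunits. Of its 11 common nuclear genes, 1 was higher and 1 lower on each stroma. These were Cox5b (0.32 ± 0.10, adjusted p = 0.025) and Cox6b1 (-0.31 ± 0.12, adjusted p = 0.049) on OP9, and Ndufa4 (0.35 ± 0.12, adjusted p = 0.028) and Cox6a1 (-0.32 ± 0.12, adjusted p = 0.044) on OP9-DLL1, each lost without several of the single libraries (adjusted p up to 0.12, 0.17, 0.18 and 0.31). Cox5b and Cox6b1 were named after their values were seen. The other common subunits did not pass, among them Cox4i1, the usual form of subunit 4, at 923.7 to 1118 CPM in cMoPs and 971.9 to 1040 CPM in monocytes.

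Alternative subunits of complex IV replace a common partner in some tissues or conditions, and 2 of them, Cox6a2 and Cox4i2, had the highest fold changes of all members between the cell types. Cox4i2 (chr2:152754173-152765037), the isoform of subunit 4 known from lung and from low oxygen, was at 0.473 and 1.53 CPM in OP9 monocytes and 0.708 and 0.670 CPM on OP9-DLL1. In cMoPs it was at 26.3 and 34.7 CPM on OP9 and 26.6 and 45.7 CPM on OP9-DLL1. The groups were far apart, by 5.15 ± 0.49 and 5.66 ± 0.49 (limma-trend adjusted p = 3.0e-05 and 1.4e-05), and leaving out single libraries kept the OP9 value between 4.30 and 6.00. Even so, per kilobase of exon Cox4i2 made up 4.92 to 7.44% of the sum of Cox4i1 and Cox4i2 in cMoPs, against 0.092 to 0.310% in monocytes.

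Cox6a2, the heart and muscle isoform of subunit 6a, had 0 reads in both libraries of the monocytes on OP9, 6 and 13 reads in those on OP9-DLL1, 95 and 157 reads in cMoPs on OP9, and 88 and 269 reads in cMoPs on OP9-DLL1. It was higher in cMoPs on OP9 (limma-trend adjusted p = 9.1e-05). The fold was 67.4 when 3 counts over the group were taken for the 0 reads and the cMoP reads as exact. On OP9-DLL1 it was 3.83 ± 0.88 higher on the log2 scale (adjusted p = 0.0047), and 3.06 to 4.60 when single libraries were left out. That call was lost without replicate 2 of the cMoPs on OP9-DLL1. Cox6a2 had the lowest level per kilobase of all members over the 8 libraries, and came to 0.220 to 0.643% of Cox6a1 plus Cox6a2 per kilobase in cMoPs. Cox6b2, the testis form of subunit 6b, measured 5.48 and 5.85 CPM in OP9 monocytes, 8.59 and 10.1 CPM on OP9-DLL1, and 10.4 to 11.7 CPM in all 4 cMoP libraries. It passed on OP9 (0.99 ± 0.19, adjusted p = 0.0017) and not on OP9-DLL1 (0.23 ± 0.19, adjusted p = 0.31).

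Cox7a1, the muscle form of subunit 7a, went the other way. It was at 4.08 and 2.85 CPM in OP9 monocytes, 2.08 and 2.05 CPM on OP9-DLL1, and in cMoPs at 0.703 to 1.31 CPM, a difference of -1.83 ± 0.40 on OP9 (adjusted p = 0.0040) and did not pass on OP9-DLL1 (adjusted p = 0.058). Cox7a2l, which takes part in joining complexes III and IV, did not pass on OP9 (-0.34 ± 0.18) or OP9-DLL1 (-0.10 ± 0.18). Cox5b-ps, a copy of Cox5b placed in the same class, had -0.12 and 0.01 and did not pass.

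**Figure D3:**
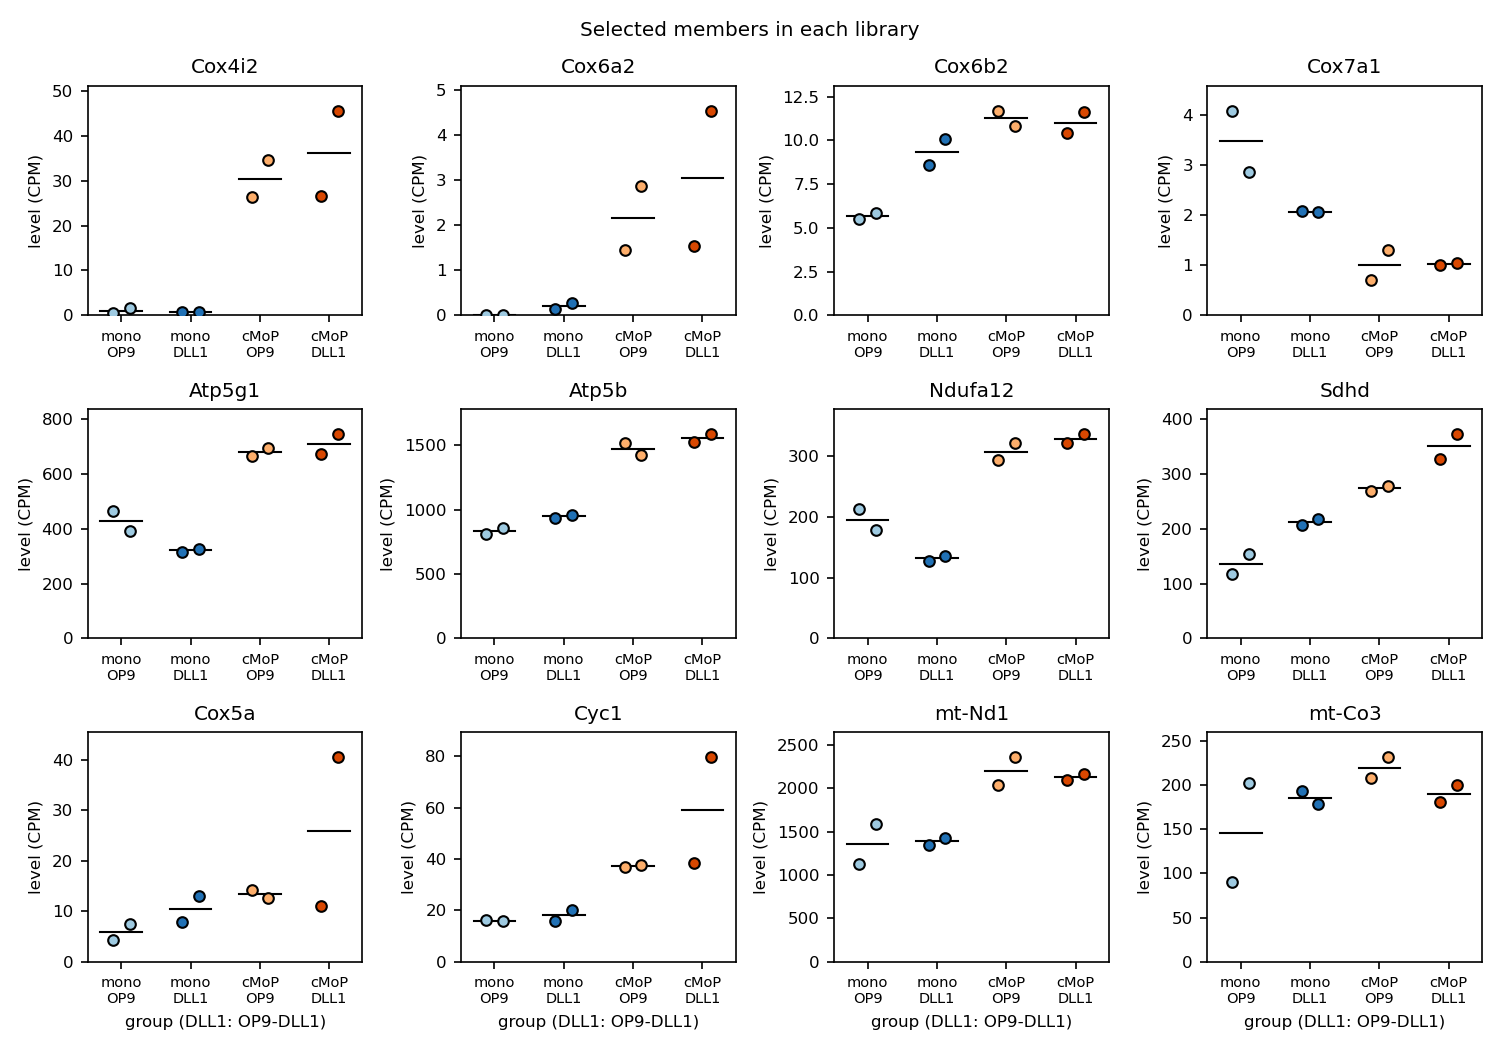
Level (CPM, linear axis from 0) of 12 members in each library; points are libraries, with replicate 1 left and replicate 2 right, and bars are group means (n = 2). Cox4i2 lies at 26.3 to 45.7 CPM in cMoPs and at 0.473 to 1.53 CPM in monocytes, while replicate 2 of the cMoPs on OP9-DLL1 alone raises the means of Cox5a and Cyc1 in that group.

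Cox5a, a common subunit of complex IV, shows how much 1 library can carry (it was singled out after its values were seen). It measured 4.38 and 7.47 CPM in OP9 monocytes, 7.87 and 13.1 CPM on OP9-DLL1, 14.3 and 12.6 CPM in cMoPs on OP9, and 11.1 and 40.6 CPM in cMoPs on OP9-DLL1. The 2 libraries of the last group were further apart than those of any other group, and neither cell type difference passed (adjusted p = 0.072 and 0.11). In that group, Cox5a, Cyc1 and Cox6a2 were the 3 nuclear members more than 2-fold apart between the libraries.

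The 13 mitochondrially encoded transcripts ranged from the most abundant members to some of the scarcest. Per kilobase of exon, mt-Cytb (cytochrome b of complex III) averaged 2460 CPM, mt-Nd1 (complex I) 1847 CPM and mt-Co1 (the catalytic subunit of complex IV) 1546 CPM. The nuclear members Cox6a1 and Cox4i1 averaged 1033 and 654.7 CPM. At the other end, mt-Nd4l averaged 6.30 CPM per kilobase and Cox6a2 1.99 CPM. Annotated exons that these cells may not use lower such values, and Ndufb2, at 2.20 CPM per kilobase, has many of them.

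Some of these counts are shared with nuclear copies of mitochondrial DNA. A stretch of chromosome 1 between 24611535 and 24616197 (GRCm38, minus strand) carries annotated copies of 7 of the 13 genes. The share of 150-base windows found in an annotated copy was 99.8% for mt-Co3, 99.4% for mt-Co2 and mt-Atp6, 98.0% for mt-Nd4l, 97.0% for mt-Nd3, 59.2% for mt-Nd4 and 23.6% for mt-Co1, and 0 for the other 6. The opening 120 bases of mt-Nd3 and of its copy Gm28438 differ only by T3C, counted from the start of the mt-Nd3 gene and marked in capitals, and are shown because they leave a read 1 base at most to tell the 2 genes apart.
mt-Nd3, chrM:9459-9578, plus strand: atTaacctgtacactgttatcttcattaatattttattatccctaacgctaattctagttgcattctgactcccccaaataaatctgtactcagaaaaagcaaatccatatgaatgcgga
Gm28438, chr1:24613000-24613119, minus strand: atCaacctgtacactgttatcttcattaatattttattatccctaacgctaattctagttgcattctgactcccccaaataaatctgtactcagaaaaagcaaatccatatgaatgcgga
The aligned bases of mt-Co3 (783) and its copy Gm28437 were identical, and in the deposited table the copy held 46.7% of their summed level. For mt-Co2, mt-Atp6 and mt-Nd4l the copies held 54.0%, 49.7% and 48.6%, and for mt-Nd3, mt-Co1 and mt-Nd4 6.96%, 2.81% and 2.65%. The levels of these 7 genes are therefore less certain than those of mt-Nd1, mt-Nd2, mt-Nd5, mt-Nd6, mt-Cytb and mt-Atp8. In addition mt-Atp8 overlaps mt-Atp6, and mt-Nd4l overlaps mt-Nd4.

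On OP9, 5 of the 13 were higher in cMoPs and none was lower, with a median of 0.42, and on OP9-DLL1 only mt-Nd1 was higher, with a median of 0.08. mt-Nd1 was at 1132 and 1585 CPM in OP9 monocytes, 1347 and 1426 CPM on OP9-DLL1, 2039 and 2361 CPM in cMoPs on OP9, and 2092 and 2162 CPM in cMoPs on OP9-DLL1. All cMoP libraries exceeded all monocyte libraries, by 0.71 ± 0.16 (adjusted p = 0.0039) and 0.62 ± 0.16 (adjusted p = 0.0078, and up to 0.056 without single libraries on OP9-DLL1). The other 4 on OP9 were mt-Nd3 (1.02 ± 0.24, adjusted p = 0.0059), mt-Nd2 (0.68 ± 0.19, 0.014), mt-Cytb (0.57 ± 0.17, 0.019) and mt-Atp6 (0.42 ± 0.16, 0.049). mt-Nd2 and mt-Cytb lost the call without replicate 2 of the cMoPs on OP9 (adjusted p = 0.092 and 0.13), and mt-Atp6 without any single library but replicate 2 of the monocytes on OP9 (up to 0.24).

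The size of these differences on OP9 depended on 1 library. Replicate 1 of the monocytes on OP9 was below replicate 2 for all 13 transcripts, by a median of 0.64 on the log2 scale, and in the other groups the corresponding medians were 0.01 to 0.12. The 13 summed to 6084 CPM in replicate 1 and 9094 CPM in replicate 2, against 8646 and 8699 CPM in OP9-DLL1 monocytes, 10047 and 11017 CPM in cMoPs on OP9, and 9361 and 9470 CPM in cMoPs on OP9-DLL1. mt-Co3, for example, was at 89.8 and 202.4 CPM in the 2 libraries and at 178.6 to 231.8 CPM in the other 6. Without replicate 1 the median cell type difference of the 13 on OP9 was 0.14 in place of 0.42, and without replicate 2 it was 0.86. A group left with 1 library was assumed to vary like the other groups.

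**Figure D4:**
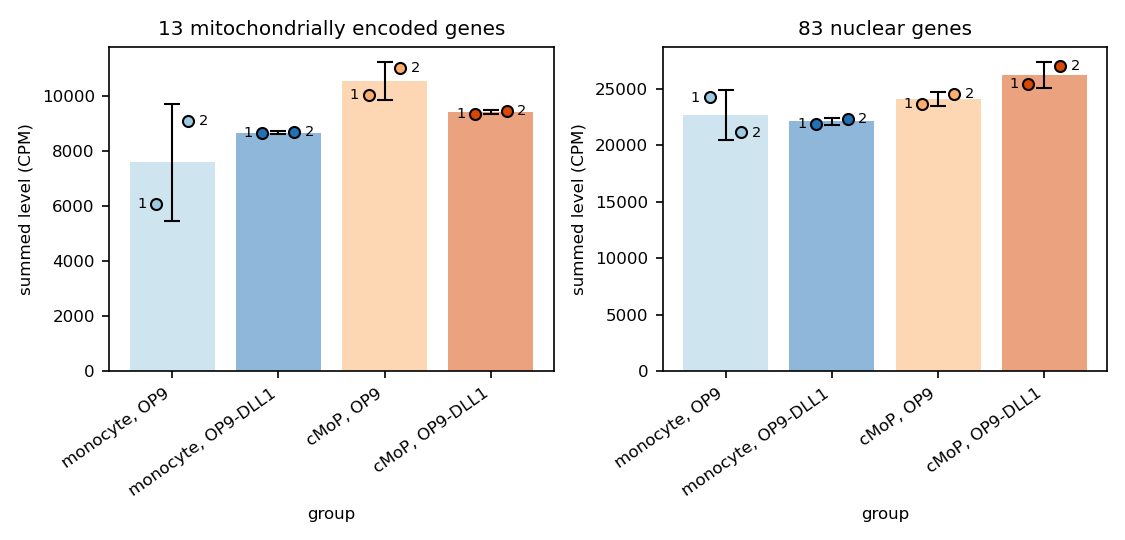
Summed level (CPM) of the 13 mitochondrially encoded and the 83 nuclear genes by group; points are libraries with their replicate number, bars are means and error bars SD (n = 2). Replicate 1 of the monocytes on OP9 has the lowest mitochondrial sum, 6084 CPM, and the highest nuclear sum of the 4 monocyte libraries, 24211 CPM.

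The remaining mitochondrially encoded genes did not pass in either cell type comparison with limma-trend as fitted here. In the authors' deposited results mt-Co1, mt-Co2 and mt-Co3 had adjusted p of 0.029, 0.032 and 0.031 on OP9. There mt-Atp6 had 0.06 on OP9 and 0.04 on OP9-DLL1. On OP9 their differences were 0.76 ± 0.31 for mt-Co2, 0.70 ± 0.30 for mt-Co3, 0.38 ± 0.15 for mt-Co1, 0.38 ± 0.52 for mt-Nd4l, 0.35 ± 0.33 for mt-Atp8, 0.26 ± 0.18 for mt-Nd4, 0.26 ± 0.19 for mt-Nd5 and -0.10 ± 0.13 for mt-Nd6. mt-Nd6, the only one of the 13 on the light strand, ranged from 161.6 to 220.1 CPM over the 8 libraries. The ratio of the mitochondrial to the nuclear sum was 0.341 ± 0.127 in monocytes on OP9, 0.392 ± 0.004 on OP9-DLL1, 0.437 ± 0.018 in cMoPs on OP9 and 0.360 ± 0.013 in cMoPs on OP9-DLL1 (SD, n = 2). With 2 libraries a group an exact permutation test cannot give a two-sided p under 0.333, so these ratios are given without a test.

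The other comparisons set OP9-DLL1 against OP9 within a cell type. In monocytes 3 of the 96 passed, 2 higher and 1 lower on OP9-DLL1, which is 3.12% against 6.39% of all genes tested (3.36% higher and 3.03% lower), with medians of -0.06 for the nuclear and 0.22 for the mitochondrially encoded members. Sdhd (chr9:50596357-50603812) was at 117.6 and 154.3 CPM on OP9 and 206.7 and 218.9 CPM on OP9-DLL1 (0.66 ± 0.14, limma-trend adjusted p = 0.028). Ndufa12 was at 212.7 and 177.7 CPM on OP9 and 127.8 and 135.7 CPM on OP9-DLL1 (-0.56 ± 0.12, adjusted p = 0.028). In neither gene did the groups overlap. Cox6a2 had 0 and 0 against 6 and 13 reads (limma-trend adjusted p = 0.026). It was 6.13-fold higher on OP9-DLL1 when 3 counts were taken for the 0 reads and the other reads as exact.

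All 3 calls depended on the libraries fitted. Each was lost without any of the 6 libraries other than the monocytes on OP9, with adjusted p up to 0.19 for Sdhd, 0.15 for Ndufa12 and 0.17 for Cox6a2. With voom on the recovered reads Cox6a2 did not pass (adjusted p = 0.21) and Atp5d did (0.70 higher, adjusted p = 0.05 after rounding). In the authors' deposited table Sdhd and Ndufa12 had adjusted p of 0.032 and 0.042, and Cox6a2 0.45. The medians depended on which library of the monocytes on OP9 was left out. The mitochondrial median was 0.55 without replicate 2 and -0.16 without replicate 1, and the nuclear median -0.15 and 0.06. With all 8 libraries, at an unadjusted p under 0.05, 8 of the 96 members were higher and 4 lower. Of the 13374 genes tested, 1504 were higher and 1411 lower by that measure. The OP9-DLL1 libraries did not overlap the OP9 libraries for 20 members that were higher and 24 that were lower, beside 24.2% and 23.5% of all genes (47.8% together).

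Among members that did not pass in monocytes, the lowest adjusted p of complex V was that of Atp5d, at 210.3 and 298.4 CPM on OP9 and 375.1 and 444.6 CPM on OP9-DLL1 (0.71 ± 0.19, adjusted p = 0.066). In complex III it was that of Uqcrh, a hinge protein binding cytochrome c1 (0.17 ± 0.10, adjusted p = 0.36). The alternative subunit Cox6b2 had 0.72 ± 0.19 (adjusted p = 0.054), Atp5g1 -0.41 ± 0.12 (0.074), Cox7a1 -0.72 ± 0.40 and Cox4i2 -0.31 ± 0.49. Sdha, Sdhb and Sdhc were within 0.16 of no change. All 13 mitochondrially encoded genes missed the threshold, with values from -0.07 for mt-Atp8 to 0.54 for mt-Nd3, and at an unadjusted p under 0.05 none passed.

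In cMoPs no member passed on OP9-DLL1 against OP9 with limma-trend, where 0.77% of all genes did (0.464% higher, 0.307% lower). At an unadjusted p under 0.05 only Sdhd did, beside 1267 of the 13374 genes tested. Voom, with or without sample weights, called none of the members. Sdhd was at 269.9 and 278.3 CPM on OP9 and 327.7 and 373.8 CPM on OP9-DLL1 (0.35 ± 0.14, adjusted p = 0.46). In complexes III, V and IV the lowest adjusted p belonged to Cyc1 (0.57 ± 0.29, adjusted p = 0.61), Atp5pb (0.20 ± 0.10, 0.62) and mt-Co1 (-0.29 ± 0.15, 0.63). mt-Co1, at 2645 and 2735 CPM on OP9 and 2188 and 2214 CPM on OP9-DLL1, did pass without either library of the monocytes on OP9 (adjusted p = 0.031 in each case) and when only the cMoP libraries were fitted (0.036).

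The values in cMoPs were small but lay apart by genome, which was not tested. The nuclear members had a median of 0.11, with 74 of 83 above 0, and the mitochondrially encoded members a median of -0.21, with 0 of 13 above 0, beside 0.01 for all genes. In 43 of the 83 nuclear genes both OP9-DLL1 libraries exceeded both OP9 libraries and in 0 both were lower. For the mitochondrially encoded genes the counts were 0 and 10 of 13. Over all genes tested, 25% had both libraries higher and 21.7% both lower, 46.7% together. A larger split by genome lay between the 2 libraries of the monocytes on OP9, with no change of stroma. There replicate 2 minus replicate 1 had a nuclear median of -0.16, with 20 of 83 above 0. The mitochondrial median was 0.64, with 13 of 13 above 0. In the other groups both medians were 0.01 to 0.12. mt-Nd2 was at 458.2 and 512.1 CPM on OP9 and 372.2 and 400.5 CPM on OP9-DLL1 (-0.33 ± 0.19), and mt-Nd3 at 73.2 and 73.5 against 59.8 and 57.1 CPM (-0.33 ± 0.24). Among nuclear genes, Ndufv1, which binds NADH, was at 204.5 and 208.5 against 248.2 and 267.6 CPM (0.32 ± 0.19) and Sdha at 271.9 and 286.3 against 338.6 and 314.4 CPM (0.23 ± 0.11). Ndufv1, mt-Nd2 and mt-Nd3 were chosen here after their values were seen. The nuclear median was 0.06 without replicate 2 of the cMoPs on OP9-DLL1 and 0.14 without replicate 1, and the mitochondrial median lay between -0.25 and -0.14 without any single cMoP library.

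The difference between the DLL1 responses of cMoPs and monocytes was tested as an interaction. No member passed with limma-trend, where 0.0523% of all genes did (0.0299% higher, 0.0224% lower). At an unadjusted p under 0.05, 5 had the higher and 4 the lower response in cMoPs, beside 693 and 616 of the 13374 genes tested. Voom with or without sample weights called none of the members. Ndufa12 came closest (0.66 ± 0.17, adjusted p = 0.26), followed by Cox6a2 (-3.79 ± 1.24, 0.38), Cox6b2 (-0.76 ± 0.26, 0.40) and Atp5g1 (0.47 ± 0.17, 0.40). The lowest value of complex II was 0.57 (Sdhb, 0.32 ± 0.17) and that of complex III 0.65 (Uqcrq, 0.37 ± 0.23). Over all 8 libraries the median was 0.19 for the nuclear and -0.44 for the mitochondrially encoded members. Without replicate 2 of the monocytes on OP9 these medians were 0.25 and -0.78. Without replicate 1 they were 0.06 and -0.06.

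Promoter sequence was examined because nuclear respiratory genes are known to share binding motifs of NRF1, ETS family factors such as GABP, and YY1. RefSeq promoters (GRCm38.p6, from 250 bases before to 50 after the gene start) could be matched for 67 of the 83 nuclear members, and motifs were searched on both strands. The NRF1 motif, in capitals in the Atp5g2 window below, occurred in 7.46% of member genes against 1.07% of all genes, the YY1 motif, in capitals in the Ndufs7 window, in 7.46% against 0.995%, and CCGGAAG, for ETS factors, in 25.4% against 9.93%. GTGGGAA, a motif of RBPJ, the factor through which Notch signals, occurred in 5.97% against 7.25%. Member promoters were also richer in G and C, with a median of 58.0% against 52.7%. The 5 NRF1 matches are given with 30 bases each, motif in capitals, because the members share these letters.
Atp5g2, chr15:102671070-102671099, minus strand: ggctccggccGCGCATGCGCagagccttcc
Atp5k, chr5:108434430-108434459, minus strand: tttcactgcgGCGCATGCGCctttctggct
Cox6a1, chr5:115349101-115349130, minus strand: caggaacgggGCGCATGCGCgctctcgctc
Ndufa11, chr17:56717692-56717721, plus strand: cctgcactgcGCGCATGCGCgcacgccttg
Uqcrc1, chr9:108936668-108936697, plus strand: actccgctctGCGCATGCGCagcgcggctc
Their cell type differences varied. On OP9-DLL1 Atp5g2 and Uqcrc1 were higher in cMoPs (0.62 and 0.45), Cox6a1 was lower (-0.32), and Atp5k (0.11) and Ndufa11 (0.13) did not pass. On OP9 only Atp5g2 passed (0.84). The YY1 matches lay in Atp5j, Ndufa9, Ndufs4, Ndufs6 and Ndufs7, of which Ndufa9 and Ndufs7 were higher in cMoPs on OP9-DLL1 (0.48 and 0.54). None of these genes passed on OP9. Sdhd, which passed in monocytes on OP9-DLL1, held the ETS motif on the opposite strand. It was 1 of 17 members with that motif, and no other of them passed in monocytes. 1 window of each is shown.
Ndufs7, chr10:80249463-80249492, plus strand: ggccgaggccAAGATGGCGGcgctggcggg
Sdhd, chr9:50603877-50603906, minus strand: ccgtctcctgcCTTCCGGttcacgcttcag
These matches describe letters in a window and not binding.

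Genes that build, transcribe or feed the complexes are given by counts. Whether they differed from the subunits or from all genes was not tested. The counts here and in the next 2 paragraphs stand beside 28.8% of all genes higher and 27.7% lower in cMoPs on OP9. On OP9-DLL1 these shares were 28.2% and 29.2%. Of 24 tested genes for mitochondrial transcription and RNA processing, 16 were higher in cMoPs on OP9 and 15 on OP9-DLL1 and none was lower, with medians of 0.86 and 0.77. Fastkd3, which acts on mitochondrial mRNA, was higher by 1.93 and 1.70, Tbrg4 by 1.42 and 2.32, and Fastkd2 by 1.34 and 1.92 (limma-trend adjusted p from 1.4e-06 to 7.5e-05). Of 18 genes of the tricarboxylic acid cycle and pyruvate entry, 14 and 15 were higher and none lower, with medians of 0.70 and 0.76. Idh3a, a subunit of the NAD-linked isocitrate dehydrogenase, was higher by 1.44 and 2.21, Suclg2 by 1.94 and 1.88 and Dlat by 1.89 and 1.40 (adjusted p from 6.0e-07 to 3.8e-04).

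Assembly factors help build a complex without staying in it. For complex I, 11 of 15 were higher on each stroma and 2 and 0 lower. Ndufaf4 was higher by 1.91 and 2.59, Ecsit by 1.29 and 1.60 and Ndufaf7 by 1.15 and 0.96. For complex IV, 8 and 7 of 21 were higher and 6 and 3 lower, with Cox10, which makes heme O, higher by 0.83 and 1.17 and the copper chaperone Cox17 lower by -1.34 and -1.24. For complexes II, III and V the counts on OP9 were 0 higher and 1 lower of 3, 3 and 1 of 6, and 2 and 0 of 5, and on OP9-DLL1 1 and 1, 4 and 0, and 4 and 0. Bcs1l, which inserts the Rieske protein, was higher by 1.21 and 1.81, Atpaf2, an F1 assembly factor, by 0.85 on OP9 (adjusted p = 0.0024; 8.9e-04 on OP9-DLL1), and Sdhaf2, which adds flavin to Sdha, differed by -0.45 and -0.65.

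Among 13 electron and inner membrane carriers, 9 and 11 were higher and 1 lower on each stroma. Cycs, cytochrome c, was higher by 0.85 and 1.59 (adjusted p = 1.2e-04 and 2.3e-06), the adenine nucleotide carriers Slc25a5 by 0.93 and 1.11 and Slc25a4 by 1.13 and 1.49, and Ucp2 was the 1 lower gene (-0.89 and -1.19). Of 10 genes of mitochondrial DNA replication 4 were higher on each stroma and 2 and 3 lower, with Top1mt higher by 2.37 and 2.67 and the polymerase Polg differing by -1.04 and -0.96. Of 9 regulators of biogenesis, 3 and 4 were higher and 1 and 2 lower, with Ppargc1b higher by 2.51 and 1.57, Pprc1 by 1.01 and 1.48, and Ppard differing by -1.96 and -2.39. Cycling markers moved with these groups, since 6 and 5 of 8 were higher in cMoPs, with summed levels of 2349 to 2680 CPM in cMoPs and 646.1 to 1316 CPM in monocytes, and their part in the differences was not tested.

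On OP9-DLL1 against OP9, few of these genes passed, where 6.39% of all genes did in monocytes and 0.77% in cMoPs. In monocytes Ndufaf4 (-0.92, adjusted p = 0.0035), Cycs (-0.67, 0.0067), Idh3a (-0.63, 0.011), Tbrg4 (-0.71, 0.018) and Fastkd2 (-0.64, 0.038) were lower and Dlat (1.01, 0.023) was higher, by limma-trend. In cMoPs none of the genes on these 10 lists passed. Stromal marker sums in the monocytes differed between the stromas as given above, and of the 7 stromal genes only Pdgfrb passed there, higher on OP9-DLL1.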

How the data were processed

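RNA was measured by sequencing in 8 libraries (SMARTer Ultra Low kit, which does not mark strand, and paired reads, per the labels' protocols). The submitters' processing notes name build mm10 and, in no stated order, limma, edgeR, featureCounts 2.0.3 of Subread, Salmon 1.5.2, STAR 2.7.9a and bcl2fastq. Which annotation was used is not given in the sources used here. Per library, the authors deposited log2 CPM, with 0.5 reads added, and a score column of linear fold change that was not used. The authors' deposited p-values and log2 fold changes cover 4 comparisons and were turned so that positive means higher on OP9-DLL1 or in cMoPs.

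Of 13430 entries, 42 repeats of an identifier were dropped. Whole reads were recovered for 100.0% of values (tolerance 0.001). Tests used limma-trend (limma 3.58.1, R 4.3.3) on the log2 values, with 1 mean per group over 8 libraries keeping genes that reached 1 CPM in 2 or more libraries, two-sided, with Benjamini-Hochberg adjustment; 5 comparisons were made. The fit was tested on simulated data. Fitted fold changes of genes near 0 reads depend on the offset. Intervals and floors cover counting error only, and floors take the reads of the higher group as exact. Gene positions and windows are from GENCODE M21 (GRCm38).

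The members, gene lists and alternatives were chosen with earlier results of these data known. Subunit roles were assigned after the values were seen. Named genes are all mitochondrially encoded members, up to 4 nuclear members per complex that passed with the lowest adjusted p and no overlap (or the lowest where none passed), the extremes of level, all alternative, c-ring and complex II subunits, and up to 3 per pathway list; others are marked in the text. Replicate numbers were not used as pairs in the main fit, since the labels do not say what they share. Correlations of deviations between groups were 0.02 to 0.09, which cannot show whether libraries were paired. The values of 1 member are not reported here by name; it stays in all counts and medians.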

Additional observations from a re-analysis of the deposited data

Results flagged for a closer look

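In 12 members every OP9-DLL1 library lay on 1 side of the OP9 libraries in monocytes and on the other side in cMoPs, which was the case for 12.5% of members and 5.85% of all genes tested. The opposition was seen in the library values and not tested as such; the interaction fitted over all libraries passed for none. Its value, as the cMoP response minus the monocyte response on the log2 scale, was 0.24 for Ndufa9, 0.34 for Atp5pb, 0.34 for Ndufa2, 0.14 for Atp5e, 0.29 for Ndufb9 and 0.46 for Atp5o. It was 0.17 for Ndufa8, 0.59 for Ndufc1, 0.26 for Atp5l and 0.26 for Atp5k, so that the 10 nuclear genes were lower on OP9-DLL1 in monocytes and higher in cMoPs. For mt-Co1 (-0.60) and mt-Nd3 (-0.87) the order was the other way round. Replicate 1 of the monocytes on OP9 had the lowest mt-Co1 and mt-Nd3 of all libraries, and Ndufc1 was at 277.0 CPM there against 152.1 to 173.7 CPM in the other 7 libraries. Without that library the values were -0.33 for mt-Co1, -0.42 for mt-Nd3, 0.24 for Ndufc1, 0.06 for Atp5k, 0.07 for Atp5e, 0.13 for Ndufb9 and 0.20 for Ndufa2, and 0.15 to 0.35 for the other 5, and none passed.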

How the results depend on the processing

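No single member that passed changed sign under the alternatives run, but medians did. Between cell types on OP9 the nuclear median was -0.02 without replicate 2 of the monocytes on OP9, in place of 0.09. Within monocytes it was -0.15 without that library and 0.06 without replicate 1, in place of -0.06. In monocytes on OP9-DLL1 against OP9, 3 members passed, against 1 without the mean-variance trend (Cox6a2), 0 with only the libraries compared and 5 with the replicate block (4 higher). In cMoPs 0 passed, against 1 with only the libraries compared (mt-Co1) and 0 to 1 without single libraries. For the difference of responses 0 passed under any setting that kept 2 libraries in every group. Between cell types on OP9, 38 passed, 25 without the trend and 22 to 61 without single libraries; on OP9-DLL1 37 passed, and 21 to 52. With the replicate block these counts were 41 and 38, and mitochondrially encoded genes higher on OP9 went from 5 to 8. Over all genes tested the block took the calls in monocytes from 855 to 1058. In cMoPs it took them from 103 to 156 and for the difference from 7 to 11. The labels do not say whether a replicate number marks a shared mouse, day or batch. The correlations of deviations, 0.02 to 0.09, cannot decide it. Of the genes that passed, 22 of 38 on OP9, 20 of 37 on OP9-DLL1 and 0 of 3 in monocytes did so under all 18 settings. Centring libraries on their medians moved the median of all genes by 0.11 on OP9-DLL1. In the authors' deposited results 28 members were higher and 10 lower in cMoPs on OP9, and 37 and 9 on OP9-DLL1. With voom on the recovered reads the counts were 29 and 11 on OP9, and 32 and 5 on OP9-DLL1. The mitochondrial median between cell types on OP9 was 0.86 without replicate 2 of the monocytes on OP9 and 0.14 without replicate 1, in place of 0.42. Depth was 47316323 reads or more per library, and Cox6a2 had 0 reads in 2 of them.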
